A study of Mus musculus with 20 samples.

Results

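The genes described here are 10 genes of the oxidative stress response, taken by name from the 31874 genes of the expression table. They are Hmox1, Gclc, Gclm, Gsr, Txnrd1, Srxn1, Sod2 and Cat, which code for antioxidant enzymes and include known targets of the transcription factor NRF2, and the metallothioneins Mt1 and Mt2. All 10 had a row in the table and passed the filter on low values. They were taken by name, with no threshold on a measured value, but with earlier results of these data known. RNA-seq was performed on ventricular tissue of 20 isolated mouse hearts in 4 groups of 5. On the Langendorff apparatus, Fat1-IR and WT-IR hearts equilibrated for 40 min, lay without flow for 20 min (global ischemia) and were reperfused for 1 h (ischemia and reperfusion, IR). The flow to Fat1-Con and WT-Con hearts went on for 120 min without a stop. The mice were 3 months old. Fat1 hearts came from fat-1 transgenic mice, which express a n-3 fatty acid desaturase of Caenorhabditis elegans that converts n-6 into n-3 polyunsaturated fatty acids, and WT hearts came from C57BL/6J mice. The transgene was present in both Fat1 groups and was not a treatment given at reperfusion. The hearts were perfused with buffer, so cells that circulating blood would bring to a reperfused heart were limited to those already in the tissue. RNA came from whole tissue, where fewer cells of a type and less RNA per cell cannot be told apart.

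NRF2 (gene Nfe2l2) is held in the cytoplasm and marked for degradation by KEAP1. Oxidants and electrophiles modify KEAP1, and NRF2 then enters the nucleus, pairs with small MAF proteins at antioxidant response elements and activates genes of glutathione and thioredoxin metabolism, while BACH1 competes for the same elements and represses Hmox1 in particular. Metallothioneins are small cysteine-rich proteins that bind zinc and copper and scavenge radicals, and they are switched on by the zinc-sensing factor MTF1 at metal response elements, by glucocorticoids and by oxidative stress. In the heart, reperfusion after ischemia is a known source of reactive oxygen species.

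Expression was given as FPKM, the number of fragments scaled to the exon length of a gene and to all fragments assigned to genes. The libraries held 15626847 to 25993336 assigned fragments. Markers of cardiomyocytes, the contractile cells, were present for 10 of 10 listed genes in every group. WT-Con 5 and Fat1-IR 1 stood apart, since transcripts of the mitochondrial genome took 15.1% and 13.9% of their fragments, against 28.4% to 39.3% in the other 18 hearts. Nuclear genes of oxidative phosphorylation had a mean log2 level of 8.60 in Fat1-IR 1, against a group median of 8.09, and of 9.19 in WT-Con 5, against a group median of 8.02. Macrophage markers summed to 107 FPKM in Fat1-IR 1 and to 160 FPKM in WT-Con 5, the highest value of their groups. Cardiomyocyte markers were also the highest of their groups in these hearts, at 19624 and 26182 FPKM. Fat1-IR 4 had lymphocyte markers at a mean log2 level of 0.98, while no other heart was above -1.95. Values without these hearts are given beside the results that they moved most.

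The members differed in level far more than they differed between groups. Over the 20 hearts the mean was 77.9 FPKM for Cat, 73.1 FPKM for Mt1, 53.7 FPKM for Sod2, 32.2 FPKM for Hmox1 and 17.1 FPKM for Srxn1. Txnrd1 (10.9 FPKM), Gclc (6.11 FPKM), Gsr (5.62 FPKM) and Gclm (4.03 FPKM) were lower, and Mt2 (1.04 FPKM) was the lowest. Neighbors in this order often lay within each other's spread: the SD over hearts was 11.5 for Cat and 35.3 for Mt1, and 1.12 for Gclc and 0.90 for Gsr. On the FPKM scale the abundant members were thus the hydrogen peroxide and superoxide scavengers catalase and SOD2 with Mt1. The scarce ones were Mt2 and the enzymes of glutathione synthesis and reduction. This order depends on the annotated exon length, which was 10008 bases for Sod2, 2613 for Cat and 1246 for Mt1. For Mt1 the annotated exons together cover the whole span of the gene, so a shorter transcript would have a higher FPKM.

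**Figure D1:**
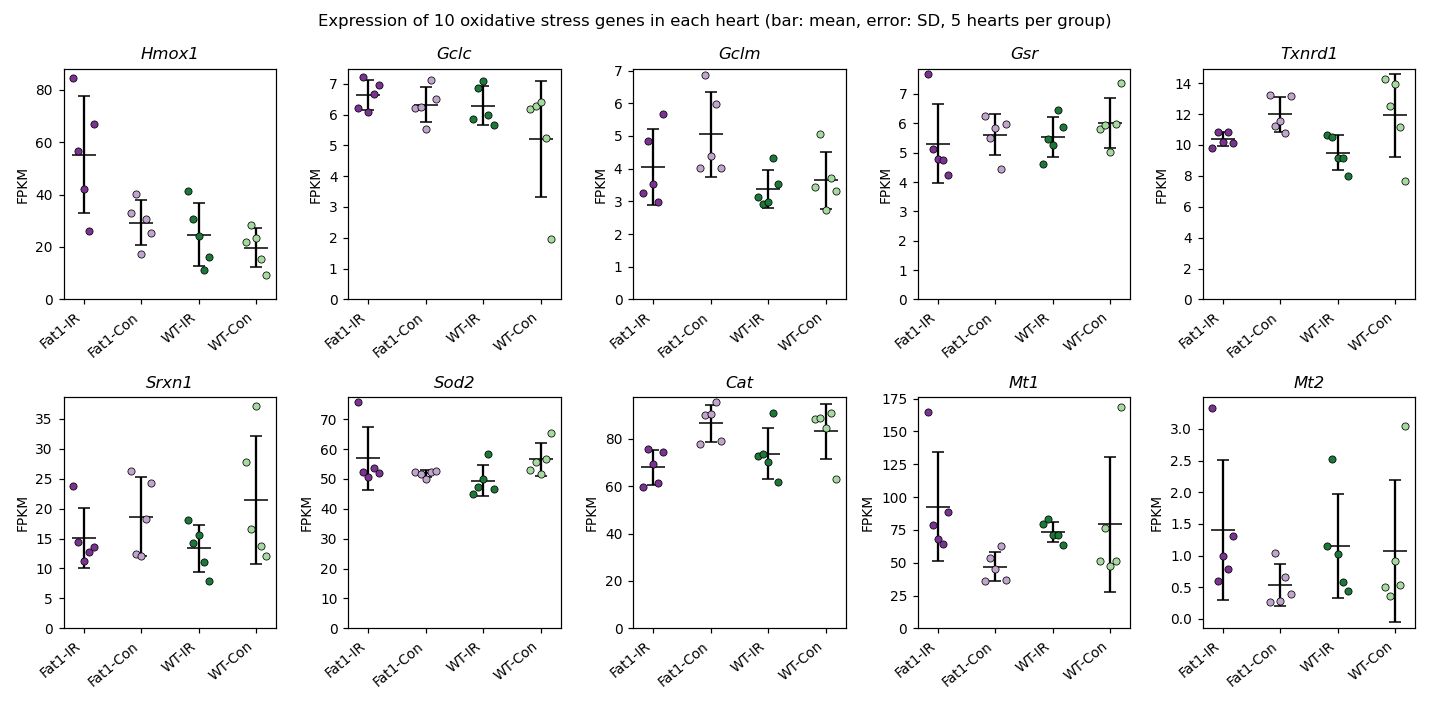
Each panel plots the FPKM of 1 gene on a linear axis for Fat1-IR, Fat1-Con, WT-IR and WT-Con, with 1 point per heart, the mean as a horizontal bar and the SD as error bar (n = 5 each). Hmox1 and Mt1 lie highest in Fat1-IR on average, Cat lies lower in Fat1-IR than in Fat1-Con, and single hearts stand apart for Mt1, Mt2, Gclc and Sod2.

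The 4 group means of log2(FPKM + 0.1) were fitted by limma for 18219 genes. To be called, a gene had to differ by more than 1.5-fold, up or down, with a Benjamini-Hochberg p below 0.05. None of the 10 members was called in Fat1-IR against Fat1-Con, where 2.0% of all genes tested were called, or in WT-IR against WT-Con, where 3.20% were called. None was called in Fat1-IR against WT-IR (0.104% of all genes) or in Fat1-Con against WT-Con (0.0274%), and none passed the test of the interaction of genotype and IR (0.00549%, adjusted p alone). At an unadjusted p under 0.05 the members numbered 4 of 10 in Fat1-IR against Fat1-Con (12.5% of all genes), namely Mt1, Cat, Hmox1 and Mt2. The number was 1 in WT-IR against WT-Con (Txnrd1, 14.9% of all genes), 1 in Fat1-IR against WT-IR (Hmox1, 6.81%), 1 in Fat1-Con against WT-Con (Gclm, 5.63%) and 0 for the interaction (5.31%). With voom, limma's method for counts, on fragments derived from FPKM, the number of members called was also 0 in all 5 comparisons. The median log2 fold change of the members was -0.01 in Fat1-IR against Fat1-Con, where that of all genes was 0.08, and -0.11 in WT-IR against WT-Con, where that of all genes was 0.04. These comparisons share hearts, so their values are set side by side and were not counted as separate support. The groups of all 10 members overlapped in WT-IR against WT-Con, where 4.76% of all genes had groups apart, in Fat1-IR against WT-IR (1.59%) and in Fat1-Con against WT-Con (1.33%). In Fat1-IR against Fat1-Con the groups of 8 members overlapped and those of 2 (Mt1 and Cat) were apart, where 6.68% of all genes had groups apart. Genes on both sides of 0 made up each median: 5 of 10 members were above 0 in Fat1 hearts and 4 of 10 in WT hearts.

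**Figure D2:**
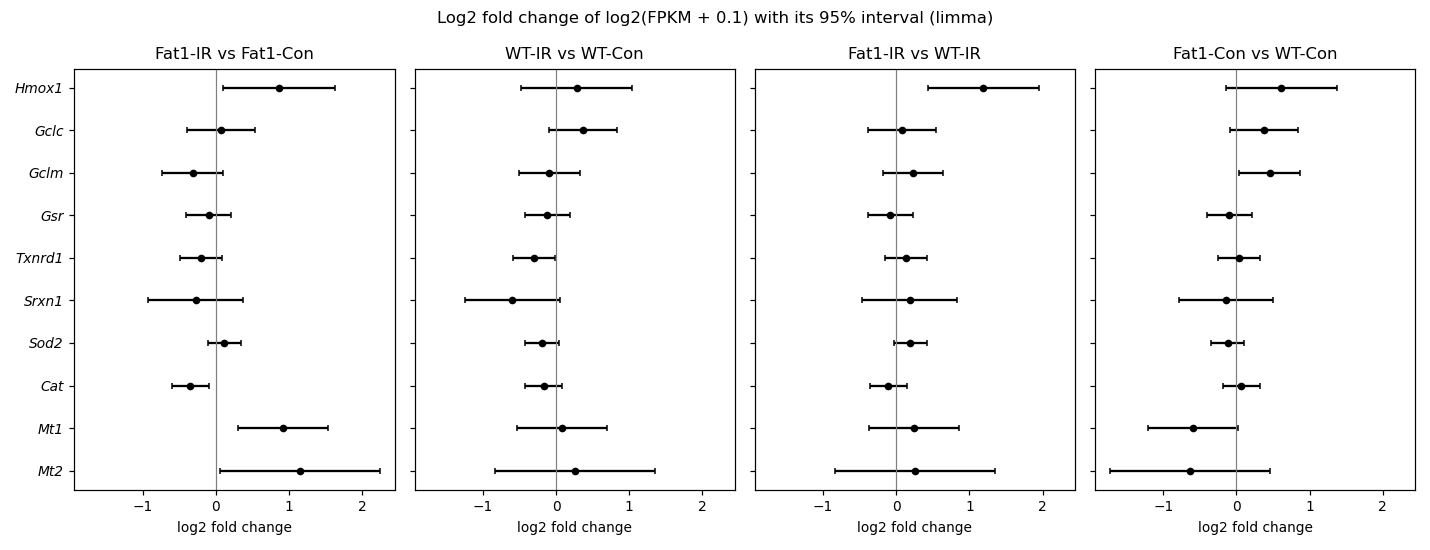
The log2 fold change of each member (dot) is plotted on the horizontal axis with its 95% interval (line) for 4 comparisons, on the scale of log2(FPKM + 0.1). The intervals of Mt1, Mt2 and Hmox1 lie above 0 and that of Cat below 0 in Fat1-IR against Fat1-Con, but after adjustment over all genes no member was called in any panel.

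Mt1 (chromosome 8, 94179082 to 94180327, plus strand, mm10) and Mt2 (chromosome 8, 94172664 to 94173568, plus strand) are neighbors. The promoter windows are printed because metal response elements are the known route from zinc to both genes. Each runs from 250 bases before the RefSeq start to 30 bases after it (GRCm38.p6, plus strand), and capitals mark the metal response element core, TGCACNC or TGCGCNC, on either strand.
Mt1, chr8:94178839-94179118: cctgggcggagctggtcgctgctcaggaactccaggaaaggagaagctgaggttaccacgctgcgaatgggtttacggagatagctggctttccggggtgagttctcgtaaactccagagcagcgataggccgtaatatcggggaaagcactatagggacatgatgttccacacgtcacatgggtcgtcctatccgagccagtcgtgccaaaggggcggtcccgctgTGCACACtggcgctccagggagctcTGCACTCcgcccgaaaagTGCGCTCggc
Mt2, chr8:94172368-94172647: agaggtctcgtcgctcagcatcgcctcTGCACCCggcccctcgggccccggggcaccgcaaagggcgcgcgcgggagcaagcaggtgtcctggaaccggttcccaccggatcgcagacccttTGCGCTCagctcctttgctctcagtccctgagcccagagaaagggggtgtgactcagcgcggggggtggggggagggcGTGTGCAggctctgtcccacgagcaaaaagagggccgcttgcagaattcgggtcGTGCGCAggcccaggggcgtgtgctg
Counted from the RefSeq start, the core occurred 3 times in the Mt1 window, at -23, +3 and +21. In the Mt2 window it occurred 4 times, at -223, -128, -50 and +5. Of 32851 promoter windows of the same length, 24.1% held the core at least 1 time and 0.405% held it 4 or more times. The Mt2 window also held TGACTCAGC, a form of the antioxidant response element, 79 bases before the RefSeq start. This window ends at 94172647, before the gene start of 94172664 given above, so its +5 match also lies before that gene start. Windows at other starts of Mt1 and Mt2 were not searched. These matches describe the letters of the windows, and no binding was measured.

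Mt1 was higher in all 5 Fat1-IR hearts than in any Fat1-Con heart. It stood at 165, 78.5, 67.8, 64.0 and 88.3 FPKM in Fat1-IR hearts 1 to 5, against 36.4, 53.7, 45.4, 62.8 and 36.9 FPKM in Fat1-Con hearts. The groups did not overlap, although the lowest Fat1-IR heart (64.0 FPKM) and the highest Fat1-Con heart (62.8 FPKM) were nearly level. Such a separation upward was seen for 4.22% of all genes tested in this comparison. The mean was 92.6 ± 41.4 FPKM in Fat1-IR and 47.1 ± 11.3 FPKM in Fat1-Con (SD, n = 5 each). Mt1 differed by 0.92 on the log2 scale (SE 0.29, 95% interval 0.30 to 1.53) with an adjusted p of 0.134 by limma, so the difference did not pass the threshold. Without WT-Con 5, which is in neither group but enters the common estimate of the spread, the same difference had an adjusted p of 0.0167. Without Fat1-IR 1 it was 0.69 with an adjusted p of 0.331. With all 3 libraries that stood apart (WT-Con 5, Fat1-IR 1, Fat1-IR 4) left out it was 0.76 with an adjusted p of 0.0243. The call of Mt1 thus rested on which of these libraries entered the fit, while the direction was the same in each of the 30 alternatives.

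In WT hearts Mt1 was at 79.2, 83.2, 71.3, 70.8 and 63.8 FPKM after IR (WT-IR), against 51.6, 76.3, 47.8, 51.1 and 169 FPKM without it (WT-Con). Of the WT-Con hearts, 3 lay below every WT-IR heart, 1 lay among them and WT-Con 5 lay far above them. With all hearts the log2 fold change was 0.08 (SE 0.29, adjusted p = 0.945, limma), and it was 0.40 without WT-Con 5 (adjusted p = 0.369). It turned to -0.03, -0.06 and -0.03 without WT-Con 1, 3 or 4. The difference between the IR effects of both genotypes was 0.84 (95% interval -0.03 to 1.71, adjusted p = 0.831), so a larger effect in fat-1 hearts was not shown. It was 0.52 without WT-Con 5 and 0.36 without all 3 libraries that stood apart. Mt1 in Fat1-Con was lower than in WT-Con by a log2 fold change of -0.60 (adjusted p = 0.757), or of -0.28 without WT-Con 5, and in Fat1-IR against WT-IR it was 0.24 (adjusted p = 0.954), or 0.014 without Fat1-IR 1.

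Mt2 was read at a far lower level, with 3 to 37 fragments per heart. It was at 3.33, 0.60, 0.99, 0.79 and 1.31 FPKM in Fat1-IR, against 0.27, 1.04, 0.29, 0.67 and 0.39 FPKM in Fat1-Con. All 5 Fat1-IR hearts lay above the Fat1-Con median, but the groups overlapped. This came to a log2 fold change of 1.15 (SE 0.52, adjusted p = 0.364, limma), or 0.79 without Fat1-IR 1 (adjusted p = 0.659). In WT-IR Mt2 was at 1.15, 2.53, 1.03, 0.59 and 0.44 FPKM, against 0.51, 0.36, 0.92, 0.54 and 3.05 FPKM in WT-Con, a log2 fold change of 0.26 (SE 0.52, adjusted p = 0.881), or 0.72 without WT-Con 5 (adjusted p = 0.448). An antisense gene, Gm45774, covers 432 of the 588 exon bases of Mt2 (73.5%) on the opposite strand. Whether fragments were counted by strand, and how overlapping genes were treated, is not given in the sources used here, so the level of Mt2 is uncertain and the ratio of Mt1 to Mt2, 32.9 to 213 over the hearts, is not a ratio of 2 equally measured genes. Mt1 and Mt2 are close paralogs, and fragments shared by both could have been divided between them.

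The highest Mt1 and Mt2 values of their groups were in Fat1-IR 1 and WT-Con 5, the libraries with the smallest share of mitochondrial transcripts. Scaled to fragments outside the mitochondrial genome, Mt1 was still at 130 in Fat1-IR 1, against 63.1 to 92.4 in the other Fat1-IR hearts, and at 135 in WT-Con 5, against 47.5 to 76.0 in the other WT-Con hearts. Macrophage markers moved with these hearts too, at 107 FPKM in Fat1-IR 1 against a Fat1-IR median of 66.2 FPKM, and at 160 FPKM in WT-Con 5 against a WT-Con median of 79.6 FPKM (7 of 7 markers present). Cardiomyocyte sums were 19624 FPKM in Fat1-IR 1 (group median 14982) and 26182 FPKM in WT-Con 5 (group median 15061). Fibroblast sums were the highest of their groups in both hearts, at 213 and 227 FPKM. Endothelial sums were the highest of the group in Fat1-IR 1 (158 FPKM) but the lowest in WT-Con 5 (101 FPKM). The part of these markers in the metallothionein values was not tested. Between the fat-1 groups the macrophage sums ranged from 62.0 to 107 FPKM in Fat1-IR and from 53.5 to 67.5 FPKM in Fat1-Con.

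**Figure D3:**
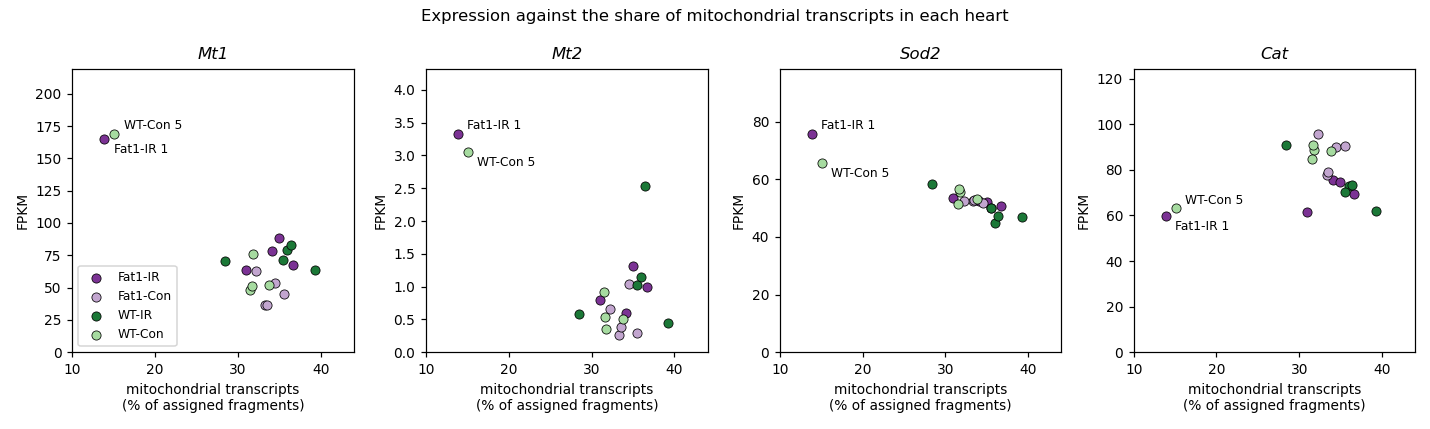
The FPKM of Mt1, Mt2, Sod2 and Cat (vertical axes) is plotted against the percentage of assigned fragments from the mitochondrial genome (horizontal axes), with 1 point per heart colored by group. WT-Con 5 and Fat1-IR 1, at 15.1% and 13.9%, lie above the other hearts for Mt1 and Sod2 and at the low end for Cat.

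Hmox1 (chromosome 8, 75093621 to 75100589, plus strand) codes for heme oxygenase 1, which cuts heme into biliverdin, iron and carbon monoxide. It was at 84.3, 56.6, 42.0, 26.1 and 66.9 FPKM in Fat1-IR, against 32.8, 40.1, 17.3, 30.8 and 25.3 FPKM in Fat1-Con. In Fat1-IR, 4 of 5 hearts lay above every Fat1-Con heart, and Fat1-IR 4 lay among them. The means were 55.2 ± 22.4 FPKM and 29.3 ± 8.54 FPKM (SD, n = 5 each), a log2 fold change of 0.86 (SE 0.37, adjusted p = 0.315, limma).
In WT-IR Hmox1 was at 41.4, 30.7, 24.2, 11.1 and 16.3 FPKM, against 21.9, 28.5, 23.3, 15.5 and 9.25 FPKM in WT-Con. These groups overlapped over most of their range, with means of 24.7 ± 12.0 FPKM and 19.7 ± 7.44 FPKM. Their log2 difference was 0.28 (SE 0.37, adjusted p = 0.800), and it was 0.035 without WT-Con 5, the lowest of its group. Between genotypes after IR, 4 of 5 Fat1-IR hearts lay above every WT-IR heart. Of these, Fat1-IR 3 (42.0 FPKM) was nearly level with WT-IR 1 (41.4 FPKM). Hmox1 had the largest genotype difference among the members, a log2 fold change of 1.19 (SE 0.37, 95% interval 0.43 to 1.95) with an adjusted p of 0.375. In the hearts without ischemia it was 0.61 (Fat1-Con against WT-Con, SE 0.37, adjusted p = 0.757), or 0.37 without WT-Con 5. The difference between the IR effects was 0.58 (95% interval -0.50 to 1.66, adjusted p = 0.838), or 0.82 without WT-Con 5 and 0.40 without Fat1-IR 1, and a difference between genotypes in the effect of IR was not shown. Over the 30 alternatives the adjusted p in Fat1-IR against WT-IR ranged from 0.148 to 0.725.

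Gclc, Gclm and Gsr, which serve glutathione synthesis and reduction, showed small differences between groups, and none passed the threshold. Gclc (chromosome 9, 77754535 to 77794485, plus strand) codes for the catalytic subunit of glutamate-cysteine ligase, the rate-limiting enzyme of glutathione synthesis. Its values ranged from 6.09 to 7.23 FPKM in Fat1-IR (median 6.66), from 5.53 to 7.12 FPKM in Fat1-Con (median 6.24), from 5.66 to 7.09 FPKM in WT-IR (median 6.00) and from 1.95 to 6.42 FPKM in WT-Con (median 6.19). All hearts but WT-Con 5, at 1.95 FPKM, lay between 5.23 and 7.23 FPKM. The log2 fold change was 0.07 (SE 0.22, adjusted p = 0.924) in Fat1-IR against Fat1-Con and 0.37 (SE 0.22, adjusted p = 0.473) in WT-IR against WT-Con, where it was 0.06 without WT-Con 5.
Gclm (chromosome 3, 122245557 to 122270732, plus strand) codes for the modifier subunit, which raises the activity of the ligase. It averaged 4.05 ± 1.15 FPKM in Fat1-IR and 5.05 ± 1.29 FPKM in Fat1-Con, and 3.38 ± 0.59 FPKM in WT-IR and 3.64 ± 0.86 FPKM in WT-Con (SD, n = 5 each). The log2 fold change was -0.32 (SE 0.20, adjusted p = 0.544) in fat-1 hearts, or -0.099 without the 3 libraries that stood apart, and -0.09 (SE 0.20, adjusted p = 0.889) in WT hearts. In the hearts without ischemia, Gclm was at 4.02, 6.85, 4.38, 5.97 and 4.02 FPKM in Fat1-Con, against 3.43, 5.05, 2.72, 3.71 and 3.31 FPKM in WT-Con, a log2 fold change of 0.45 (SE 0.20, adjusted p = 0.757). All 5 Fat1-Con hearts lay above the WT-Con median, and the groups overlapped. Exons of Gm17494 and Gm6061 overlap 4.71% and 3.88% of the Gclm exons, Gm17494 on the opposite strand and Gm6061 on the same strand, so a small part of its fragments could have been shared with them. The ratio of Gclc to Gclm had group medians of 1.73 in Fat1-IR, 1.26 in Fat1-Con, 1.87 in WT-IR and 1.41 in WT-Con, with ranges that overlapped.
Gsr (chromosome 8, 33652523 to 33698163, plus strand) codes for glutathione reductase, which returns oxidized glutathione to its reduced form. It averaged 5.31 ± 1.36 FPKM in Fat1-IR and 5.61 ± 0.70 FPKM in Fat1-Con, and 5.53 ± 0.69 FPKM in WT-IR and 6.02 ± 0.85 FPKM in WT-Con. Its log2 fold changes were -0.10 (95% interval -0.41 to 0.21) in fat-1 hearts and -0.12 (95% interval -0.42 to 0.19) in WT hearts. Between genotypes they were -0.08 after IR and -0.10 without ischemia. Without Fat1-IR 1, the highest of its group, they were -0.24 in Fat1-IR against Fat1-Con and -0.22 in Fat1-IR against WT-IR.

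Txnrd1 and Srxn1 were lower on average after IR in both genotypes, without passing the threshold. Txnrd1 (chromosome 10, 82833951 to 82897712, plus strand) codes for cytosolic thioredoxin reductase, which keeps thioredoxin reduced. It was at 10.7, 10.5, 9.18, 9.14 and 7.97 FPKM in WT-IR, against 14.3, 12.6, 14.0, 11.1 and 7.67 FPKM in WT-Con. All WT-IR hearts lay below 4 of the 5 WT-Con hearts, and WT-Con 5 was the lowest of all 10. The log2 fold change was -0.30 (SE 0.14, adjusted p = 0.304, limma). Without WT-Con 5 it was -0.45 with an adjusted p of 0.00966, still under the fold threshold. In fat-1 hearts Txnrd1 averaged 10.4 ± 0.45 FPKM in Fat1-IR and 12.0 ± 1.14 FPKM in Fat1-Con, a log2 fold change of -0.20 (SE 0.14, adjusted p = 0.583). The difference between these effects was 0.10 (95% interval -0.31 to 0.50).
Srxn1 (chromosome 2, 152105516 to 152111376, plus strand) codes for sulfiredoxin, which repairs overoxidized peroxiredoxins. Its promoter window is printed because, like that of Mt2, it holds letters searched here as a site of NRF2 with small MAF proteins. Capitals mark these letters, TGAGTCAGC, which were not compared with sites of other factors.
Srxn1, chr2:152105274-152105553: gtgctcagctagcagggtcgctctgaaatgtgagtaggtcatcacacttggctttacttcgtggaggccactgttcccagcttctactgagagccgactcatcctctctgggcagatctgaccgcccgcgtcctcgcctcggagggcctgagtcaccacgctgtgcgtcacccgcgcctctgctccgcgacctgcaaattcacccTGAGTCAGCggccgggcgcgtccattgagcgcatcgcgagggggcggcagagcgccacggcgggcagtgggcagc
The match starts 45 bases before the RefSeq start on the plus strand. TGACTCAGC or TGAGTCAGC, on either strand, was found in 0.773% of the 32851 windows. Among the 7 members with a window (9 windows in all) it was found in Srxn1 and Mt2. These letters were added to the search after the windows were read, so this share is no test of the members. The looser pattern TGACNNNGC, the core of the antioxidant response element, was found in Gclm, Mt2 and Txnrd1, and in 11.5% of all windows. TGAGTCAGC does not match this pattern, and the Srxn1 window held no match to it. Srxn1 was at 18.1, 14.3, 15.5, 11.1 and 7.89 FPKM in WT-IR, against 27.7, 16.5, 37.1, 13.8 and 12.0 FPKM in WT-Con. The WT-Con hearts were spread widely and overlapped with the WT-IR hearts. Srxn1 differed by -0.60 on the log2 scale (SE 0.31, adjusted p = 0.386). In Fat1-IR it was at 23.8, 14.4, 11.2, 12.7 and 13.5 FPKM, against 26.3, 12.3, 12.0, 18.3 and 24.2 FPKM in Fat1-Con, a log2 fold change of -0.28 (SE 0.31, adjusted p = 0.759). Without Fat1-IR 1, the highest of its group, the log2 fold change was -0.45 (adjusted p = 0.694).

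Cat and Sod2 code for enzymes that remove oxidants directly: catalase splits hydrogen peroxide, and SOD2 turns superoxide into hydrogen peroxide in the mitochondrial matrix. Cat (chromosome 2, 103453849 to 103485160, minus strand) was at 59.5, 75.7, 69.5, 61.3 and 74.5 FPKM in Fat1-IR, against 77.7, 90.1, 90.5, 95.7 and 79.1 FPKM in Fat1-Con. The groups did not overlap, a separation downward that 2.46% of all genes tested showed. The means were 68.1 ± 7.41 FPKM and 86.6 ± 7.84 FPKM (SD, n = 5 each), and the log2 fold change was -0.35 (SE 0.12, 95% interval -0.60 to -0.09) with an adjusted p of 0.178. Its size, a fold of 0.785, was under the fold threshold, so Cat could not be called at any p. Without Fat1-IR 1 the log2 fold change was -0.30 (adjusted p = 0.335, limma). It was -0.24 without the 3 libraries that stood apart (adjusted p = 0.214). Without WT-Con 5, which is in neither group, the adjusted p was 0.0476. In WT-IR Cat was at 72.7, 73.5, 70.1, 91.0 and 61.7 FPKM, against 88.3, 88.7, 84.7, 91.0 and 63.1 FPKM in WT-Con. Here 4 of 5 WT-IR hearts lay below 4 of 5 WT-Con hearts, and WT-Con 5 lay low. Cat differed by -0.17 on the log2 scale (SE 0.12, adjusted p = 0.575), or -0.27 without WT-Con 5 (adjusted p = 0.150). The difference between the IR effects was -0.18 (95% interval -0.54 to 0.18), and it was 0.03 when the 3 libraries that stood apart were left out.
Sod2 (chromosome 17, 13006846 to 13040063, plus strand) was the steadiest of the abundant members, at 50.1 to 52.8 FPKM in Fat1-Con. It ranged from 50.6 to 75.7 FPKM in Fat1-IR (median 52.4), where Fat1-IR 1 alone was above 53.7 FPKM. In WT hearts it ranged from 45.0 to 58.3 FPKM in WT-IR (median 47.2) and from 51.6 to 65.5 FPKM in WT-Con (median 55.8), where WT-Con 5 was the highest. Sod2 differed by 0.12 on the log2 scale (SE 0.11, adjusted p = 0.702) in fat-1 hearts and -0.19 (SE 0.11, adjusted p = 0.439) in WT hearts, and the difference between them was 0.31 (95% interval -0.01 to 0.63, adjusted p = 0.831), or 0.14 without the 3 libraries that stood apart. When the 3 libraries that stood apart were left out, the value in fat-1 hearts was -0.0037. Scaled to fragments outside the mitochondrial genome, Sod2 was at 59.8 in Fat1-IR 1, against 52.9 to 54.5 in the other Fat1-IR hearts, and at 52.5 in WT-Con 5, against 51.3 to 56.5 in the other WT-Con hearts. The high Sod2 value of WT-Con 5 was thus absent on that scale, and that of Fat1-IR 1 was smaller.

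The members also differed in the genes whose values were most like theirs across the 20 hearts. Likeness was measured as Pearson's r of log2(FPKM + 0.1) against 11043 other genes that averaged 1 FPKM or more. For Sod2 the closest were Immt, which shapes the inner mitochondrial membrane (r = 0.98), Atp5a1, a subunit of ATP synthase (0.96), and Pdhb, a subunit of pyruvate dehydrogenase (0.95). For Mt1 they were Psenen, a subunit of gamma-secretase (0.94), Cebpb, a transcription factor of the acute phase response (0.90), and Apoe, a lipid carrier (0.90). For Hmox1 the closest was Amotl2 (0.91), for Txnrd1 Tlr4 (0.94) and for Srxn1 Auts2 (0.92). Over the 17 hearts other than those 3 libraries, r was 0.92 for Sod2 and Immt, 0.90 for Mt1 and Psenen, 0.86 for Hmox1 and Amotl2, 0.93 for Txnrd1 and Tlr4, and 0.94 for Srxn1 and Auts2. Over the same 17 hearts r was 0.81 for Mt1 and Cebpb, 0.71 for Mt1 and Apoe, 0.88 for Sod2 and Atp5a1, and 0.86 for Sod2 and Pdhb. For Gclc the closest was Itprid2, with r = 0.94 over 20 hearts and 0.56 over 17. The hearts share group, depth and mitochondrial share, so these values describe the pattern and were not tested.

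The wider pathway was read from 4 further lists, in which called genes were few. Of 10 regulators of NRF2, 0 were called in any comparison by limma or by voom. At an unadjusted p under 0.05 (limma) they numbered 0 in Fat1-IR against Fat1-Con (12.5% of all genes) and 2 in WT-IR against WT-Con (14.9%). The number was 3 in Fat1-IR against WT-IR (6.81%), 0 in Fat1-Con against WT-Con (5.63%) and 1 for the interaction (5.31%). Nfe2l2 itself averaged 21.6 ± 1.78 FPKM in Fat1-IR and 23.7 ± 1.36 FPKM in Fat1-Con, and 20.3 ± 1.83 FPKM in WT-IR and 22.4 ± 1.68 FPKM in WT-Con (SD, n = 5 each). Its log2 fold changes after IR were -0.13 (SE 0.09, adjusted p = 0.575) in fat-1 hearts and -0.14 (SE 0.09, adjusted p = 0.504) in WT hearts, and those of Keap1 were -0.17 (SE 0.17) and -0.10 (SE 0.17). Nfe2l2 and Keap1 are named here outside the rule for naming genes, with their values known. The regulators had a median log2 fold change of -0.03 in Fat1-IR against Fat1-Con and of -0.20 in WT-IR against WT-Con, where 0 of 10 lay above 0. When the 3 libraries that stood apart were left out, these medians were -0.13 and -0.37, with 2 of 10 above 0 in each. In Fat1-IR against WT-IR the median was 0.21 with 9 of 10 above 0, and 0.11 with 7 of 10 without the 3 libraries.

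Of 20 further NRF2 targets, 19 passed the filter on low values (all but Slc7a11), and of these 1 rose in each IR comparison and 0 fell. The median log2 fold change was 0.15 in Fat1-IR against Fat1-Con, with 13 of 19 above 0, and -0.04 in WT-IR against WT-Con, with 7 of 19 above 0. When the 3 libraries that stood apart were left out, the order turned round, at 0.03 with 10 of 19 above 0 in fat-1 hearts and 0.14 with 14 of 19 in WT hearts. In fat-1 hearts the called gene was Cbr3, a carbonyl reductase. It was at 1.05, 0.81, 0.54, 0.45 and 0.52 FPKM in Fat1-IR, against 0.13, 0.18, 0.32, 0.23 and 0.44 FPKM in Fat1-Con. The groups did not overlap (4.22% of all genes tested were separated upward), on 3 to 25 fragments per heart, and the log2 fold change was 1.12 (SE 0.28, adjusted p = 0.0363, limma). Without Fat1-IR 1, the highest heart, it was 0.97 and was not called (adjusted p = 0.107). In WT hearts the called gene was G6pdx, glucose-6-phosphate dehydrogenase, which supplies the NADPH that glutathione and thioredoxin reductases use. G6pdx was at 1.83, 1.97, 1.20, 1.99 and 2.20 FPKM in WT-IR, against 1.09, 1.33, 0.89, 1.01 and 1.04 FPKM in WT-Con. In 4 of 5 WT-IR hearts it was above every WT-Con heart. G6pdx rose by 0.71 on the log2 scale (SE 0.19, adjusted p = 0.0425). G6pdx averaged 1.17 ± 0.26 FPKM in Fat1-IR and 1.19 ± 0.28 FPKM in Fat1-Con. Cbr3 averaged 0.93 ± 0.27 FPKM in WT-IR and 0.68 ± 0.28 FPKM in WT-Con. Its mean of 0.68 ± 0.25 FPKM in Fat1-IR was thus level with WT-Con, and that of 0.26 ± 0.12 FPKM in Fat1-Con was the lowest of the 4 groups. In Fat1-Con against WT-Con the log2 fold change of Cbr3 was -1.13 (SE 0.28, adjusted p = 0.579), as large as the IR difference in fat-1 hearts and not called. The difference between the IR effects in fat-1 and WT hearts did not pass for Cbr3 (0.70, SE 0.39) or for G6pdx (-0.73, SE 0.27), both with an adjusted p of 0.831. Both calls within a genotype were near the threshold. Over the alternatives the adjusted p ranged from 0.0140 to 0.112 for Cbr3 and from 0.0140 to 0.127 for G6pdx, and voom called G6pdx but not Cbr3. The call was lost in 12 of 29 alternatives for Cbr3 and in 16 of 30 for G6pdx, with the same direction in each. Endothelial markers (8 of 8 present) summed to 151 to 189 FPKM in WT-IR, against 101 to 150 FPKM in WT-Con, and fibroblast markers (7 of 7 present) to 221 to 276 FPKM in WT-IR, against 166 to 227 FPKM in WT-Con. In fat-1 hearts the endothelial sums were 134 to 158 FPKM in Fat1-IR, against 118 to 140 FPKM in Fat1-Con, and the fibroblast sums 161 to 213 FPKM in Fat1-IR, against 168 to 179 FPKM in Fat1-Con. Their part in the values of G6pdx and Cbr3 was not tested. In the comparisons between genotypes 0 of the 19 were called by limma or by voom. At an unadjusted p under 0.05 (limma) the 19 genes numbered 4 in Fat1-IR against Fat1-Con (12.5% of all genes) and 2 in WT-IR against WT-Con (14.9%). There was 1 in Fat1-IR against WT-IR (6.81%), 1 in Fat1-Con against WT-Con (5.63%) and 1 for the interaction (5.31%).

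The other antioxidant enzymes (19 genes, such as superoxide dismutases, peroxiredoxins and glutathione peroxidases) held 0 calls in any comparison by limma or by voom. Of all genes tested, limma called from 0.00549% (interaction) to 3.20% (WT-IR against WT-Con). At an unadjusted p under 0.05 (limma) they numbered 2 in Fat1-IR against Fat1-Con (12.5% of all genes) and 1 in WT-IR against WT-Con (14.9%). Between genotypes they numbered 1 in Fat1-IR against WT-IR (6.81%) and 2 in Fat1-Con against WT-Con (5.63%). Gss, glutathione synthetase, was among those in both IR comparisons and is named with its values known. Its log2 fold change was -0.43 (SE 0.17, adjusted p = 0.271, limma) in fat-1 hearts and -0.54 (SE 0.17, adjusted p = 0.0981) in WT hearts, negative in all 30 alternatives, and it was called in WT hearts only when WT-Con 2 was left out (-0.66, adjusted p = 0.0367). With all hearts, 17 of 19 lay above 0 in Fat1-IR against Fat1-Con (median log2 fold change 0.15) and 4 of 19 in WT-IR against WT-Con (median -0.19), while the medians of all genes were 0.08 and 0.04. When WT-Con 5 was left out together with Fat1-IR 1 and 4, 13 of 19 lay above 0 in fat-1 hearts (median 0.07) and 12 of 19 in WT hearts (median 0.09), so the opposite signs of the 2 genotypes rested on these libraries. Of 9 metal-responsive genes tested besides Mt1 and Mt2, which include MTF1 and zinc transporters, 0 were called by limma or by voom and 0 had an unadjusted p under 0.05 in any comparison. In fat-1 hearts 7 of 9 lay above 0 after IR (median 0.09), and in WT hearts 8 of 9 (median 0.13).

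**Figure D4:**
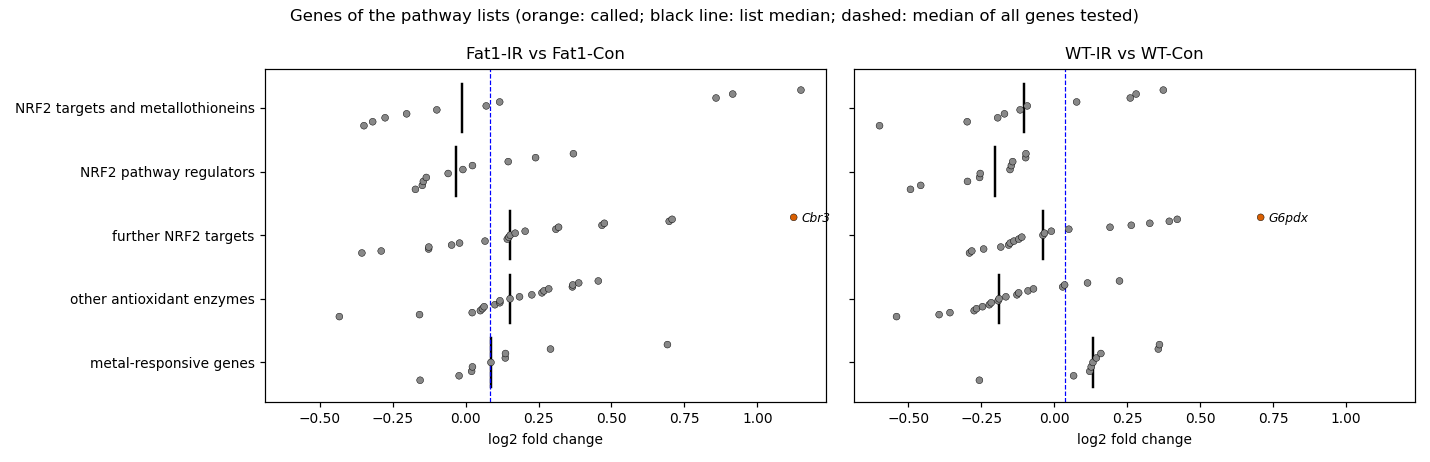
Each point is 1 gene, placed by its log2 fold change (horizontal axis) in Fat1-IR against Fat1-Con and in WT-IR against WT-Con, in rows by list, with a black line at the list's median and a dashed line at the median of all genes tested. Cbr3 in fat-1 hearts and G6pdx in WT hearts (orange) are the only called genes of these lists.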

How the data were processed

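Ventricular RNA of 20 mouse hearts was extracted with TRIzol, and libraries from an NEBNext Ultra kit were sequenced on a HiSeq instrument. Per the labels, reads were aligned to mm10 with HISAT2 and featureCounts was used. Versions, strand setting and annotation release were not given in the sources used here. Deposited values were the authors' FPKM for each heart, scaled to all fragments assigned to genes. Multiplied by exon lengths of the GENCODE annotation, 98.5% of 31217 genes came to whole fragments in all libraries (within 0.02, below 1000 fragments), which gave the depth of each library. A further 657 IDs had no match there.

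Levels were analysed as log2(FPKM + 0.1). limma 3.58.1 in R 4.3.3 fitted 4 group means with a variance trend (16 residual degrees of freedom) to 18219 genes that averaged 0.1 FPKM or more, and 13655 genes were left out. Tests were two-sided, with Benjamini-Hochberg adjustment over all genes tested. A call required a fold over 1.5 and adjusted p below 0.05, and the interaction only the second. Replicates were separate hearts. The alternatives were other pseudocounts and filters, median-of-ratios and non-mitochondrial scaling, single pairs of groups, replicate number as a block, and each heart left out. Voom on the fragments and the fit without 3 libraries were added after the data were seen. The steps were also run on simulated data with planted differences and independent noise. No simulated library was made to stand apart, so that run says nothing on the libraries that stood apart here.

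Named are the 10 members, at most 4 called genes per further list and comparison, and the 3 genes most alike in pattern to each member. The members and lists were chosen with earlier results of these data known. Promoters were taken from RefSeq (GRCm38.p6), with a window for 7 of 10 members. The letters TGACTCAGC and TGAGTCAGC were added to the search after the windows were read. Python 3.11.15 was used for tables (pandas 2.3.3, numpy 2.4.6) and for figures (matplotlib 3.10.9).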

Additional observations from a re-analysis of the deposited data

Results flagged for a closer look

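Of 40 sets of 5 hearts (10 members in 4 groups), 9 held a heart that stood apart from the rest, judged by its gap to the nearest heart over the range of its group (above 0.71). Chance gives about 1 in 20 sets, here tried on 2 scales, FPKM and log2. All 9 were Fat1-IR 1 or WT-Con 5, the libraries with the lowest mitochondrial share, and 3 of the 9 held on both scales.

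In Fat1-IR 1 the value was the highest of its group for Sod2 at 75.7 FPKM (next 53.7, both scales), for Mt1 at 165 FPKM (next 88.3), for Mt2 at 3.33 FPKM (next 1.31), for Srxn1 at 23.8 FPKM (next 14.4) and for Gsr at 7.68 FPKM (next 5.12). In WT-Con 5 it was the highest for Mt1 at 169 FPKM (next 76.3) and for Mt2 at 3.05 FPKM (next 0.92). It was the lowest for Gclc at 1.95 FPKM (next 5.23, both scales) and for Cat at 63.1 FPKM (next 84.7, both scales). The part of the mitochondrial share, or of the markers of macrophages and other cell types, in these values was not tested.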

How the results depend on the processing

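The log2 fold changes of the members gave 1490 values over 30 alternatives, of which 1459 kept their direction and their side of the threshold, 29 turned in direction and 2 passed the threshold. The 2 were Mt1 in Fat1-IR against Fat1-Con, at 0.92 when WT-Con 5 was left out and 0.76 when Fat1-IR 1 and 4 were left out with it, so that the number of members called there became 1 in these fits (range with 1 heart left out, 0 to 1). All turned values were of differences that were not called. Scaled to non-mitochondrial fragments, the log2 fold change was 0.034 for Gclm and 0.011 for Gsr in WT-IR against WT-Con, -0.021 for Gclc in Fat1-IR against WT-IR, and -0.10 for Txnrd1 and -0.18 for Gsr in the interaction, and median-of-ratios scaling gave -0.0050 for Gsr there. Without the 3 libraries it was -0.0037 for Sod2 in Fat1-IR against Fat1-Con, -0.057 for Mt2 in Fat1-IR against WT-IR, -0.11 for Txnrd1 and -0.030 for Cat in Fat1-Con against WT-Con, and in the interaction 0.037 for Gclc, 0.021 for Gclm, -0.20 for Gsr and 0.029 for Cat. With 1 heart left out, ranges that crossed 0 were -0.19 to 0.029 for Gclm, -0.058 to 0.40 for Mt1 and -0.064 to 0.72 for Mt2 in WT-IR against WT-Con, -0.11 to 0.11 for Txnrd1, -0.32 to 0.089 for Srxn1 and -0.030 to 0.10 for Cat in Fat1-Con against WT-Con, -0.11 to 0.57 for Mt2 in Fat1-IR against WT-IR, -0.41 to 0.011 for Gclc and -0.12 to 0.091 for Gsr in the interaction. The cause of these turns was not tested.

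The number of all genes called in WT-IR against WT-Con was 350 with a pseudocount of 1, 226 with the pair fitted alone and 930 without the 3 libraries (394 to 744 with 1 heart left out), against 583. In Fat1-IR against Fat1-Con it was 242 to 599 with 1 heart left out, against 364. In Fat1-IR against WT-IR it was 39 without the 3 libraries and 7 to 42 with 1 heart left out, against 19. The 1 gene of the interaction was lost with non-mitochondrial scaling and without the 3 libraries (0), with 1 to 2 genes when 1 heart was left out. The share of called genes that were higher in Fat1-IR against Fat1-Con was 64.8%, but 54.0% with median-of-ratios scaling and 47.2% without the 3 libraries, and in WT-IR against WT-Con 63.0%, but 78.5% with non-mitochondrial scaling, which moved the median of all genes to 0.15 there and to -0.14 in the interaction. In Fat1-IR against WT-IR that share was 57.9%, but 43.8% with non-mitochondrial scaling and 33.3% without the 3 libraries.

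Replicate numbers gave no pairing: over 30 pairs of same-numbered hearts the correlation of deviations ran from -0.14 to 0.06, and 12 of 60 best matches were to the own number. With the replicate block 0 members were called in each comparison, 0 genes passed the interaction, and the adjusted p of Cbr3 was 0.0741. Depth limits Mt2 and Cbr3 most, at 3 fragments in the lowest hearts.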

Other observations

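Among the other antioxidant enzymes, Sod3, the extracellular superoxide dismutase that is bound to the matrix around vessels, had the smallest p-values between genotypes. It was singled out after its values were seen, and it was not called. After IR it was at 5.39, 5.76, 6.07, 5.15 and 4.71 FPKM in Fat1-IR, against 7.69, 8.11, 7.52, 6.94 and 6.99 FPKM in WT-IR, and the groups did not overlap (0.906% of all genes tested were separated downward in this way). The log2 fold change was -0.45 (SE 0.11, adjusted p = 0.134, limma), with an adjusted p of 0.0567 to 0.286 over 30 alternatives. Without ischemia it was at 3.72, 4.36, 4.73, 4.60 and 5.02 FPKM in Fat1-Con, against 5.78, 6.62, 5.34, 7.05 and 7.19 FPKM in WT-Con, again without overlap (0.757% of all genes). The log2 fold change there was -0.50 (SE 0.11, adjusted p = 0.262), with an adjusted p of 0.126 to 0.777 over 30 alternatives. Fibroblast markers (7 of 7 present) summed to 161 to 213 FPKM in Fat1-IR, against 221 to 276 FPKM in WT-IR, and to 168 to 179 FPKM in Fat1-Con, against 166 to 227 FPKM in WT-Con. Endothelial markers (8 of 8 present) summed to 134 to 158 FPKM in Fat1-IR, against 151 to 189 FPKM in WT-IR, and to 118 to 140 FPKM in Fat1-Con, against 101 to 150 FPKM in WT-Con. Their part in the values of Sod3 was not tested. These comparisons have no heart in common, but both compare the same genotypes.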
